A study of Mus musculus with 12 samples.

Results

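The genes described here were 34 genes of the unfolded protein response and of the chaperone machinery of the endoplasmic reticulum (ER). They were chosen by name for their known role and not by their measured values, though with earlier results of these data known. All 34 were listed among the 23284 genes of the deposited expression table. RNA was sequenced from sorted group 3 innate lymphoid cells (ILC3s) of the small intestine of HR-1 mice, a hairless strain, all labelled as 18 weeks old. PA milk mice were offspring of normal-diet dams that were nursed by dams fed a diet high in palmitic acid and returned to the normal diet at weaning. ND mice received milk of dams on the normal diet. For each diet 3 libraries came from the intraepithelial layer (IEL) and 3 from the lamina propria (LP), 12 libraries in 4 groups, called here PA milk IEL, PA milk LP, ND IEL and ND LP. By the study's methods, LP cells were released by collagenase and DNase digestion from tissue whose IEL cells had been released with EDTA and DTT. The sort gated lineage-negative cells by Thy1.2, CD25 and Nrp1 and by CD4 or CD45, on which the sources differ. Nothing stated whether the 3 libraries of a group came from separate animals, so p-values measure only the spread between these libraries, which may be technical. The IEL and LP libraries of a diet carry the same numbers in their titles. Whether such a pair came from the same mouse was not stated, and the main fit did not pair them.

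Secretory and membrane proteins fold in the ER with the help of chaperones, lectins and disulfide isomerases. When unfolded proteins accumulate, the sensors IRE1, PERK and ATF6 signal to the nucleus: IRE1 splices the mRNA of Xbp1, PERK slows translation and favours ATF4, and ATF6 is released as a transcription factor. The targets of this response enlarge the folding capacity, clear misfolded proteins by ER-associated degradation (ERAD) and, when stress persists, include the factor CHOP, encoded by Ddit3. Saturated fatty acids such as palmitic acid are widely used to induce ER stress in cultured cells, and cells that secrete large amounts of protein, such as plasma cells and goblet cells, depend on this system.

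Levels are given in FPKM, fragments per kilobase of transcript scaled to the mapped fragments of the library, a scale on which genes of different length can be compared. Reads assigned to genes numbered about 8730000 to 14590000 per library, as recovered from the smallest steps of the deposited values. A pair of libraries stood apart: PA milk IEL replicate 2 had only 4390 genes and PA milk LP replicate 2 only 5637 genes at 1 FPKM or more, against 7863 to 11378 in the other 10. The label of the sorted cells was borne out in part. Id2, which all innate lymphoid cells use, was found in all 12 libraries (95.2 to 750 FPKM). Thy1, a protein of the gate, was listed at 0 in 5 libraries. Il2ra and Nrp1, which encode the gate proteins CD25 and Nrp1, ranged from 0 to 82.4 and from 0 to 58.2 FPKM. Summed ILC3 markers were 0.0421% and 0.014% of all FPKM in the sparse IEL and LP libraries, against 0.0321% to 0.756% in the others. In the sparse IEL library this sum was nearly all Id2 (326 FPKM), with every other marker of the list at 0.248 FPKM or less. In the sparse LP library Id2 was at 95.2 FPKM and every other marker at 8.36 or less. The highest sum, in ND LP replicate 2, was mostly Il22 (4340 FPKM). Macrophage and neutrophil markers were 0.85% and 0.904% there, against 0.0506% to 1.72% in the others. Epithelial markers made up 0.68% to 10.6% of all FPKM in the IEL libraries and 0.0505% to 0.862% in the LP libraries. In such bulk samples, fewer cells of a type and less RNA per cell cannot be told apart.

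As a set the genes were abundant. Their summed level was 0.406% to 1.04% of all FPKM of a library, and Hspa5 alone contributed 0.0648% to 0.261%. At 1 FPKM or more, 21 of the 34 genes were detected in each of the 2 sparse libraries and 27 to 33 in each of the others. In all 12 libraries, 17 of the 34 genes reached 1 FPKM, against 2260 (18.1%) of the 12502 genes tested. For the tests a gene needed 1 FPKM in at least 3 libraries, which 33 of the 34 reached. The exception was Ern2, the epithelial form of IRE1.

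**Figure D1:**
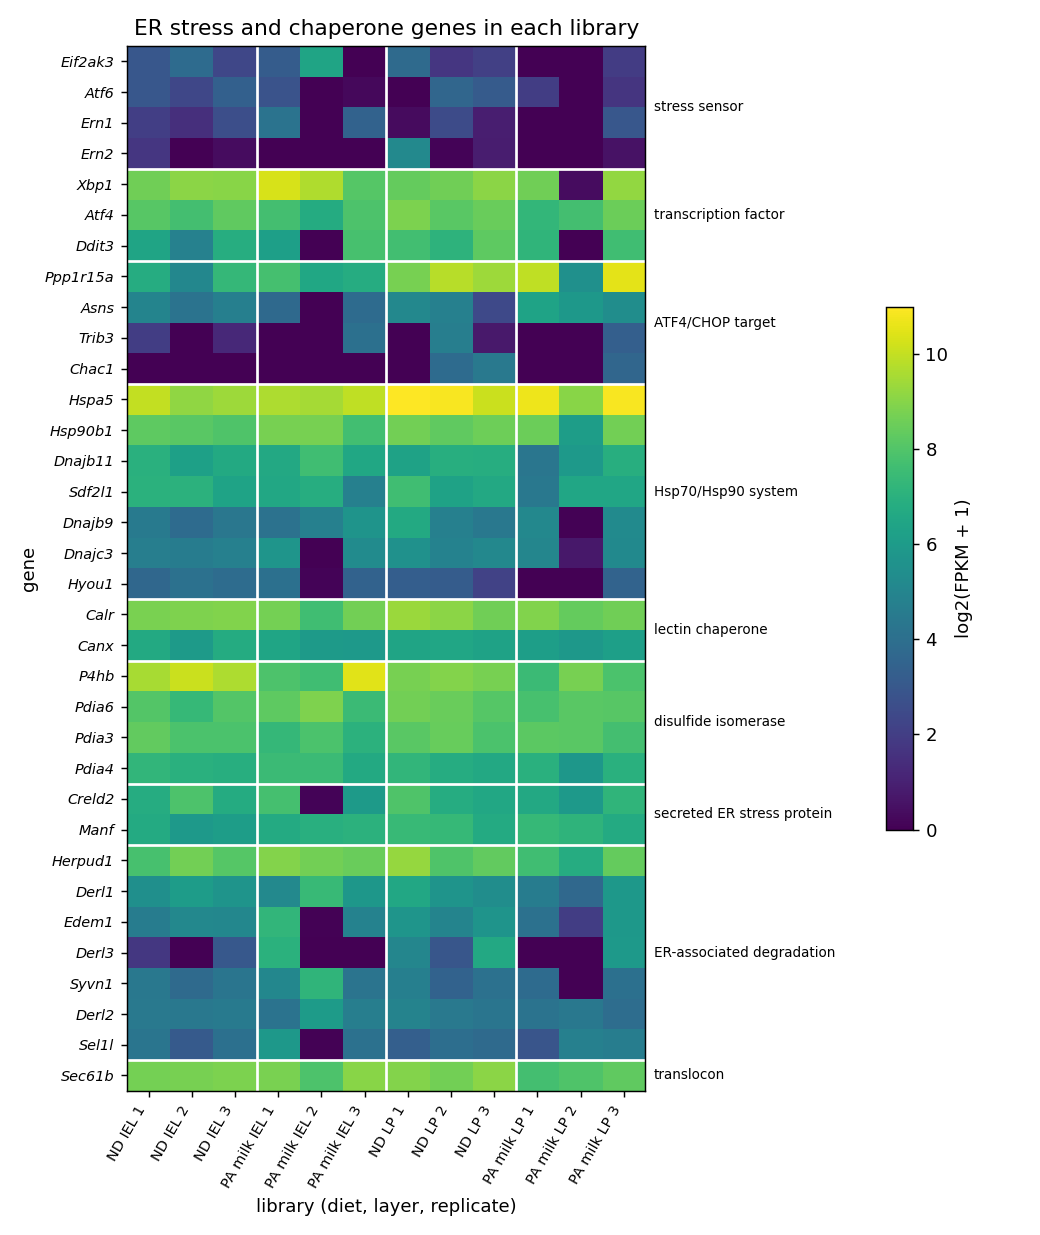
Level of each of the 34 genes (rows, grouped by role) in each of the 12 libraries (columns, grouped by diet and layer), coloured by log2(FPKM + 1). Hspa5 forms the brightest row, with 520 to 2023 FPKM, while the sensors are dark, and most of the dark cells in otherwise bright rows lie in PA milk IEL replicate 2 and PA milk LP replicate 2.

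Many genes of the unfolded protein response carry an ER stress element in the promoter, a CCAAT box that NF-Y binds, spaced from a CCACG part that ATF6 and XBP1 bind. The RefSeq promoter windows of GRCm38.p6 (250 bases before to 50 after the annotated start) were searched on both strands for the element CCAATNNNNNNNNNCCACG and for its variant ATTGGNCCACG, called ERSE-II. A window was listed for 29 of the 34 genes and not for Manf, Ern2, Derl1, Hyou1 and Atf6. The first element was in the windows of 9 genes (31.0% of 29), namely Hspa5, Hsp90b1 (2 copies), Calr, Canx, Pdia6, Dnajc3, Creld2, Derl3 and Syvn1, against 37 of 27025 genes in all (0.137%). The ERSE-II variant was in the windows of Dnajb11 and Herpud1 (6.9% of 29), against 0.0444% of all genes. Together 11 of the 29 had one of the elements, among 49 genes in all. Searched in the same way, TGACGTGG, a site of XBP1 and ATF6, was in 0 of the 29 (0.714% of all genes), and TGATGNAAT, a site of ATF4 with a C/EBP partner, in 0 of the 29 (1.08% of all genes), which says only that these exact letters are not in these windows. The elements below belong to the genes whose levels did not overlap between groups in a comparison given further on. The element is in capitals, with 20 bases on each side in lower case, read along the strand of the gene; in Calr and in the second copy of Hsp90b1 the element lies on the opposite strand and so appears reversed.
Hsp90b1, chr10:86705513-86705676, minus strand: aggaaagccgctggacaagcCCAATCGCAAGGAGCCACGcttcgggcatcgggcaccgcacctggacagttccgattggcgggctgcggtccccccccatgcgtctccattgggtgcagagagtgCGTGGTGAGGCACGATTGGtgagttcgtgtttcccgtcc
Calr, chr8:84847055-84847113, minus strand: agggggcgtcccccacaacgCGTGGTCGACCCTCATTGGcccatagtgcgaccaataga
Canx, chr11:50325780-50325838, minus strand: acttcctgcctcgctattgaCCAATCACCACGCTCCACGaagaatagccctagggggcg
Pdia6, chr12:17266471-17266529, plus strand: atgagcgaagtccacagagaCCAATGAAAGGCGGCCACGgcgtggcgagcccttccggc
Dnajc3, chr14:118937807-118937865, plus strand: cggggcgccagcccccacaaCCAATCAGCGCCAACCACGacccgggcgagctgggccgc
Syvn1, chr19:6046512-6046570, plus strand: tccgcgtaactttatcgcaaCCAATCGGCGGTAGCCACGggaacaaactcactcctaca
Herpud1, chr8:94386357-94386407, plus strand: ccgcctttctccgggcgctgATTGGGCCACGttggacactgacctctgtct
The element of Hspa5 is shown without its surroundings, because a longer GENCODE model of the gene starts before it, at 34771970. It lies 65 to 47 bases before the RefSeq start.
Hspa5, chr2:34772025-34772043, plus strand: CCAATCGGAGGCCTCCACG

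The sensors were among the fainter genes of the set, with mean levels of 4.18 FPKM for Ern1 (IRE1), 4.23 FPKM for Atf6 and 11.5 FPKM for Eif2ak3 (PERK). Ern1 was listed at 17.4, 0 and 9.88 FPKM in PA milk IEL, 3.09, 1.78 and 5.18 in ND IEL, 0, 0 and 6.91 in PA milk LP and 0.249, 4.77 and 0.869 in ND LP. Atf6 was listed at 6.06, 0 and 0.163 FPKM in PA milk IEL, 6.9, 4.05 and 9.44 in ND IEL, 2.95, 0 and 2.2 in PA milk LP and 0, 11.2 and 7.81 in ND LP. Eif2ak3 was listed at 8.04, 84.5 and 0 FPKM in PA milk IEL, 6.9, 13.3 and 4.13 in ND IEL, 0, 0 and 2.84 in PA milk LP and 13, 2.34 and 3.19 in ND LP. PA milk and ND overlapped in both layers for each of these 3 sensors, and each was listed at 0 in 3 libraries. Ern2 was at 34.6 FPKM in ND LP replicate 1 and at 2.37 or less in the other 11 libraries. That library also had the highest summed level of goblet cell markers, 4.26% of all FPKM against 2.07% or less elsewhere, with 5140 FPKM of Agr2, a disulfide isomerase of mucin-secreting cells, and the part of these cells in the Ern2 level was not tested.

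The transcription factors were far more abundant than the sensors. Atf4 was the most even of them, with 209, 107 and 243 FPKM in PA milk IEL, 279, 207 and 316 in ND IEL, 155, 207 and 362 in PA milk LP and 450, 290 and 357 in ND LP. Xbp1 stood at 1274, 817 and 269 FPKM in PA milk IEL, 389, 539 and 518 in ND IEL, 384, 0.286 and 587 in PA milk LP and 329, 387 and 534 in ND LP. Ddit3 was listed at 72.3, 0 and 223 FPKM in PA milk IEL, 84.8, 27.4 and 114 in ND IEL, 143, 0 and 194 in PA milk LP and 203, 137 and 303 in ND LP. The 2 libraries in which Ddit3 was listed at 0 were the 2 sparse ones, and the near absence of Xbp1 was likewise confined to PA milk LP replicate 2 among the 12. GENCODE places a second gene model of the same symbol inside the Ddit3 locus, and how reads were divided between them is not given in the sources used here.

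Among the chaperones, Hspa5, which encodes the ER Hsp70 protein BiP and holds the sensors inactive, was the most abundant gene of the set, with a mean of 1150 FPKM. It was followed by P4hb (557 FPKM), a disulfide isomerase that is also a subunit of collagen prolyl hydroxylase, by Xbp1 (502 FPKM), by Ppp1r15a (430 FPKM), whose product GADD34 reverses the PERK signal, by the lectin chaperone Calr (428 FPKM) and by the translocon subunit Sec61b (390 FPKM). The genes differed widely in how even they were between libraries of a group. The pooled SD on the log2(FPKM + 1) scale was smallest for Canx, the membrane-bound lectin chaperone (0.284, 56.4 to 108 FPKM over all 12 libraries), followed by the disulfide isomerase Pdia3 (0.312), the secreted protein Manf (0.337), Sec61b (0.352) and Calr (0.381). It was largest for Ddit3 (3.03), the ERAD gene Derl3 (2.92) and Xbp1 (2.54). The median over the 33 genes tested (all but Ern2) was 1.36 and over all genes tested 1.48.

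**Figure D2:**
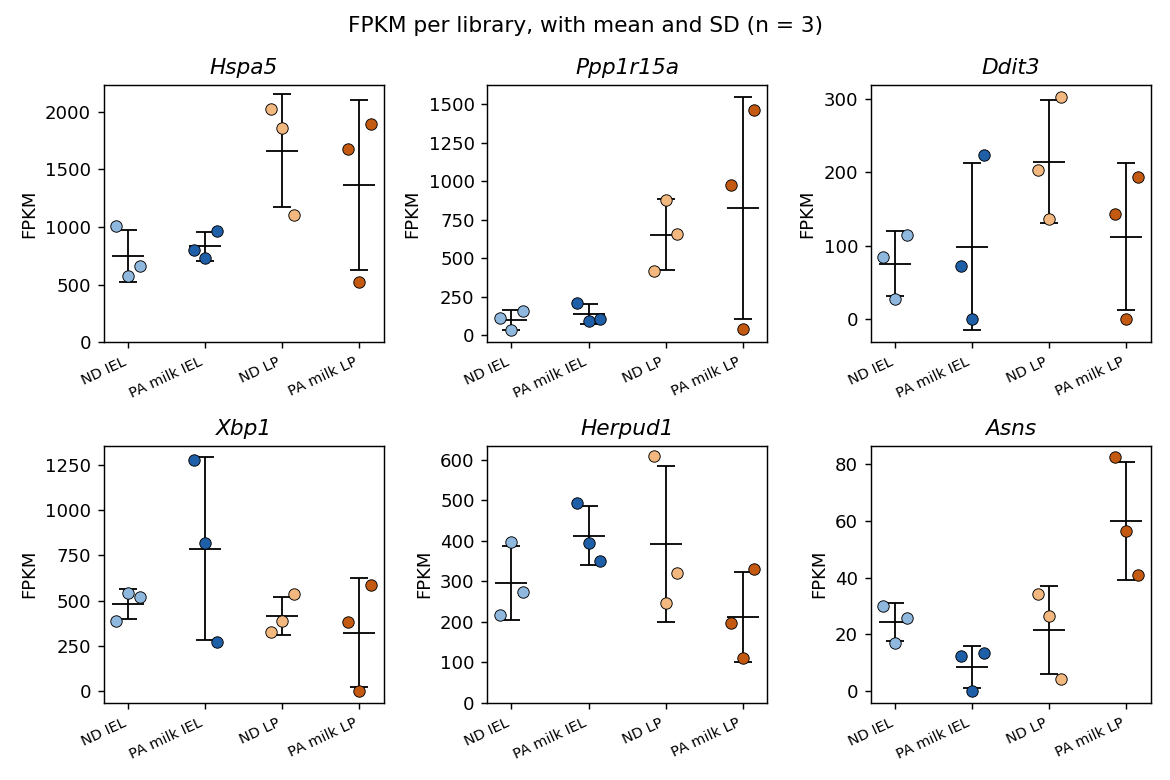
FPKM (vertical axis, linear) of 6 of the genes in the 4 groups, with 1 point per library and the mean and SD of the 3 libraries of each group. Hspa5 and Ppp1r15a of ND LP lie above those of ND IEL without overlap, and the lowest point of PA milk LP in Hspa5, Ppp1r15a, Ddit3 and Xbp1 is the same library, replicate 2.

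The comparison of PA milk with ND addresses whether milk high in palmitic acid was followed by different mRNA levels of these genes in adult ILC3s. Levels per gene do not show the splicing of Xbp1, the slowing of translation by PERK or the release of ATF6. In IEL the comparison gave no common direction. Of the 33 genes tested, 17 had a higher and 15 a lower mean of log2(FPKM + 1) in PA milk. The median log2 fold change was 0.14 against -0.30 over all 12502 genes. Chac1, an ATF4 and CHOP target, was listed at 0 in all 6 IEL libraries. At an adjusted p under 0.05 limma called 0 of the 33 and 0 genes in all (0.0%), and at an unadjusted p under 0.05 it found 0 of the 33 against 447 genes in all (3.58%). Without the 2 sparse libraries the counts were 18 higher and 14 lower, with a median of 0.06 against 0 over all genes. Among the 2260 genes at 1 FPKM or more in every library, the median was 0.22, and 0.2 for the 17 genes of the set among them. With libraries scaled to a common upper quartile, 7 of 34 were higher and 26 lower (median -0.38), with all genes at a median of -0.58, so the direction in IEL differed with the scaling.

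The genes with the smallest p in IEL were Creld2, P4hb and Asns. Creld2, a secreted disulfide isomerase induced by ATF6, was at 211, 0.0629 and 62.1 FPKM in PA milk IEL and at 109, 240 and 107 in ND IEL (log2 fold change -2.55, SE 1.35, limma adjusted p 0.947). Without the 2 sparse libraries this value was -0.30. P4hb was at 244, 197 and 1423 FPKM in PA milk IEL and at 747, 1105 and 790 in ND IEL (log2 fold change -1.08, SE 0.60, limma adjusted p 0.947). Its log2 fold change was -0.71, -0.56 and -1.98 without PA milk IEL replicate 1, 2 or 3. The 2 libraries with the highest P4hb, PA milk IEL replicate 3 and ND IEL replicate 2, also had the highest summed epithelial markers (6.89% and 10.6% of all FPKM), and the part of epithelial RNA in P4hb was not tested. Asns, the asparagine synthetase that ATF4 induces, was at 12.4, 0 and 13.4 FPKM in PA milk IEL and at 30.1, 17.1 and 25.9 in ND IEL (log2 fold change -2.09, SE 1.18, limma adjusted p 0.947), and without PA milk IEL replicate 2 its log2 fold change was -0.83.

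The libraries of the 2 diets did not overlap in IEL for 4 genes. Manf was higher in PA milk, at 104, 122 and 132 FPKM against 103, 59.8 and 68.3, and was the only gene of the 33 with this order, against 2.97% of all genes tested. Asns, Calr and Pdia3 were lower, 3 of 33 against 5.22% of all genes. Calr was at 407, 194 and 404 FPKM in PA milk IEL and at 433, 458 and 473 in ND IEL, and Pdia3 at 156, 232 and 134 against 321, 235 and 236. With 3 libraries against 3 an exact permutation test cannot go below p = 0.1, which is what each of the 4 reached. Calr and Pdia3 act together with Canx on glycoproteins, and for Canx the diets overlapped (87.8, 61.7 and 58.5 FPKM against 99.9, 62.4 and 108).

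In LP the direction was shared: 31 of the 33 genes had a lower and 2 a higher mean of log2(FPKM + 1) in PA milk, with a median log2 fold change of -0.78. Most genes tested leaned the same way, 62.2% of the 12502 being lower with a median of -0.36. The 2260 genes at 1 FPKM or more in every library did not, with 41.6% lower and a median of 0.12. The 17 genes of the set among them were all lower, with a median of -0.63. All 7 genes of the Hsp70 and Hsp90 system, all 4 disulfide isomerases and both lectin chaperones were lower, but none passed the test. Without the 2 sparse libraries, 5 of the 7 (median -0.10 in place of -1.05), 3 of the 4 and both lectin chaperones were lower. At an adjusted p under 0.05 limma called 0 of the 33 and 0 genes in all (0.0%), and at an unadjusted p under 0.05 it found 1 of the 33 against 588 genes in all (4.7%). Without the 2 sparse libraries the counts were 25 lower and 8 higher, with a median of -0.25 against -0.05 over all genes, and leaving out PA milk LP replicate 2 alone also gave -0.25.

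The gene with the smallest p in LP was Sec61b, at 206, 245 and 310 FPKM in PA milk LP and 485, 402 and 542 in ND LP, without overlap. Its log2 fold change was -0.91 (SE 0.40, unadjusted p 0.0385, limma adjusted p 0.979), and without the 2 sparse libraries it was -0.90 (limma adjusted p 0.599). In IEL the diets overlapped for Sec61b (437, 237 and 525 FPKM with PA milk, 416, 429 and 445 with ND). Herpud1, which brings substrates to the ERAD ligase, was at 196, 111 and 331 FPKM against 609, 246 and 320 (log2 fold change -0.91, SE 0.50, limma adjusted p 0.979). Xbp1 had a log2 fold change of -2.63 (SE 1.53), which became 0.22 without PA milk LP replicate 2, and for Hspa5 -0.44 (SE 0.42) became 0.15. Hspa5 was at 1674, 520 and 1896 FPKM in PA milk LP and at 2023, 1859 and 1105 in ND LP, so 2 of the 3 PA milk libraries lay within the ND range. Without overlap between the diets, Canx was also lower (69.8, 56.4 and 73.1 FPKM against 83.9, 88.2 and 80), which makes 2 of 33 against 6.6% of all genes. Asns was higher in each PA milk library, at 82.3, 56.3 and 41 FPKM against 34.1, 26.5 and 4.31 (log2 fold change 1.76, SE 1.18), 1 of 33 against 2.97% of all genes.

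**Figure D3:**
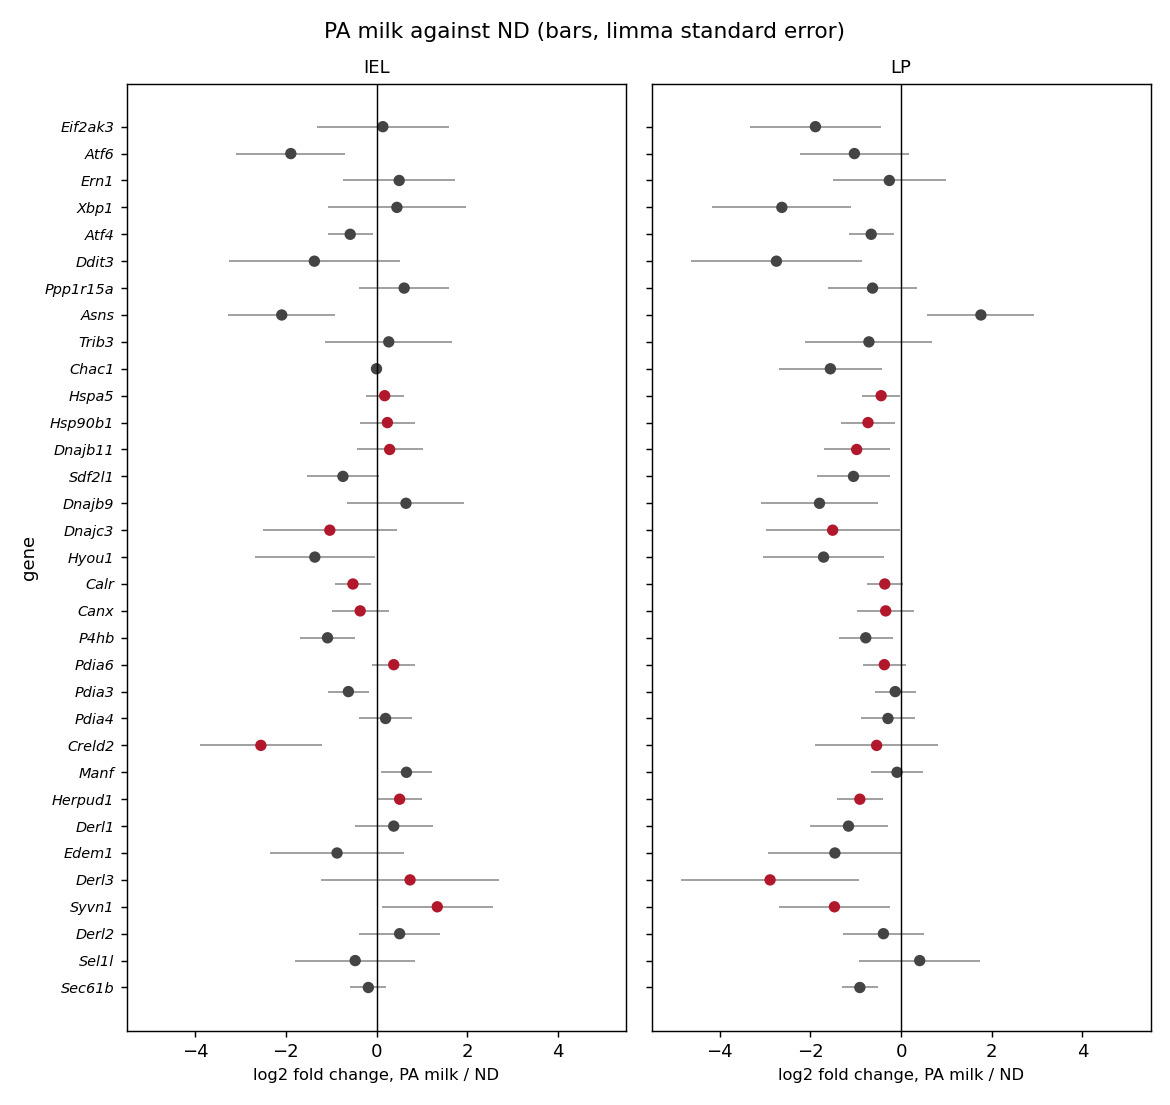
Log2 fold change of PA milk over ND with its limma standard error (horizontal axis) for the 33 genes tested (rows), in IEL on the left and in LP on the right; red points mark the 11 genes with an ER stress element in the promoter window. The points lie on both sides of 0 in IEL (17 higher, 15 lower) and mainly below 0 in LP (31 of 33). Some of the LP error bars cross 0, and others, such as that of Sec61b (-0.91, SE 0.40), end short of it. None of the 33 was called in either layer.

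Markers of other cells also differed with the diet in LP. Summed goblet cell markers were 0.0244%, 0.0919% and 0.201% of all FPKM in PA milk LP and 4.26%, 0.375% and 2.07% in ND LP, with 8 of the 9 tested markers lower in PA milk. All 15 epithelial markers were lower in PA milk LP as well. The ILC3 markers were lower for 13 of 15, with summed levels of 0.035%, 0.014% and 0.06% against 0.111%, 0.756% and 0.134%. For 13 genes that respond to cell isolation, described further on, the log2 fold changes were all negative, although their summed level was above that of every ND LP library in PA milk LP replicates 1 and 3 (2.76% and 3.4% against 2.49% or less) and 0.193% in the sparse replicate 2. The part of these cells and of cell isolation in the lower levels of the ER genes was not tested. In IEL, 14 of 15 epithelial, 8 of 9 goblet and 7 of 7 Paneth cell markers were lower in PA milk, beside 60.5% of all genes. There 10 of 15 ILC3 and 7 of 11 macrophage and neutrophil markers were higher. The part of these cells in the IEL levels was not tested either.

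The 11 genes with an ER stress element were set beside the genes without one, as a description and with no test of a difference. In LP all 11 were lower in PA milk (median -0.73), beside 16 of the 18 genes that had a window without an element (median -0.75), and without the sparse libraries 9 of the 11 were lower (median -0.23). In IEL 7 of the 11 were higher and 4 lower (median 0.24), beside 8 higher and 9 lower of the 18 (median -0.09).

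The difference of the diet effect between the layers was negative for 25 of the 33 genes, with a median of -0.75 against -0.03 over all genes. Limma called 0 of the 33 and 0 genes in all at an adjusted p under 0.05 (0.0%), and at an unadjusted p under 0.05 it found 1 of the 33 against 292 genes in all (2.34%). Asns was that gene, with a difference of 3.86 (SE 1.67, unadjusted p 0.0351, limma adjusted p 1). Groups that did not overlap in either layer and had opposite directions in the 2 layers were found for Asns alone of the 33, against 0.24% of all genes. Herpud1 had a difference of -1.42 (SE 0.71) and the ERAD ligase gene Syvn1 one of -2.81 (SE 1.73). Of the 7 ERAD genes, 5 were higher in PA milk in IEL and 6 lower in LP, without a call.

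The layers were then compared within each diet. In ND mice, 21 of the 33 genes were higher and 12 lower in LP than in IEL, with a median of 0.13 against 0.09 over all genes, and the libraries of the 2 layers did not overlap for 9 genes. Higher in LP were Ddit3, Ppp1r15a, Hspa5, Hsp90b1, Dnajc3, Pdia6 and Manf, 7 of 33 against 9.34% of all genes, and lower were Hyou1 and P4hb, 2 of 33 against 9.95%. At an adjusted p under 0.05 limma called 0 of the 33, against 4 genes in all (0.032%), and at an unadjusted p under 0.05 it found 3 of the 33 against 829 genes in all (6.63%). The 3 were Ppp1r15a, Hspa5 and Chac1. Among those that did not overlap, Dnajc3 was at 45.6, 27.9 and 33.8 FPKM in ND LP against 25.1, 23.2 and 26.7 in ND IEL, and Hyou1, an ER chaperone related to Hsp70, at 8.86, 8.05 and 3.51 against 11.9, 16.2 and 13.7. Manf was at 170, 162 and 103 FPKM against 103, 59.8 and 68.3, where the nearest libraries were equal after rounding.

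Ppp1r15a was at 419, 881 and 658 FPKM in ND LP and at 111, 33 and 159 in ND IEL (log2 fold change 2.88, SE 0.99, unadjusted p 0.0102, limma adjusted p 0.441). Every ND LP library lay above every ND IEL library. In PA milk it was at 975, 45.3 and 1464 FPKM in LP and at 212, 91.3 and 110 in IEL, so PA milk LP replicate 2 was the exception (log2 fold change 1.64, SE 0.99, limma adjusted p 0.574). Without the 2 sparse libraries Ppp1r15a rose in LP in both diets, by 2.88 in ND (limma adjusted p 0.0322) and by 2.96 in PA milk (limma adjusted p 0.0447), and leaving out PA milk LP replicate 2 alone also gave both calls (adjusted p 0.0489 and 0.0205). It was the only gene of the 33 called in those fits. Without the 2 sparse libraries, 113 of the 12502 genes tested were called in ND and 314 in PA milk.

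Hspa5 had means of 1660 ± 490 FPKM in ND LP and 747 ± 228 FPKM in ND IEL (SD, n = 3), with libraries at 2023, 1859 and 1105 against 1006, 574 and 660. The log2 fold change of Hspa5 was 1.15 (SE 0.42, unadjusted p 0.0156, limma adjusted p 0.527). For P4hb, lower in LP, the ND libraries were at 422, 497 and 425 FPKM in LP against 747, 1105 and 790 in IEL, and the PA milk LP libraries at 177, 423 and 233. Calr was at 476, 338 and 388 FPKM in PA milk LP and at 650, 532 and 386 in ND LP, and its layers overlapped in both diets. In PA milk the LP libraries of Hspa5 were at 1674, 520 and 1896 FPKM and the IEL libraries at 796, 727 and 968, so the 2 LP libraries other than the sparse one lay above all IEL libraries. Its partner Hsp90b1, the ER Hsp90 protein GRP94, was at 403, 311 and 371 FPKM in ND LP against 301, 287 and 251, and Pdia6 at 399, 351 and 273 against 263, 163 and 266. The log2 fold changes of these 2 genes were small beside their error (0.37, SE 0.60, and 0.58, SE 0.47). Chac1, which degrades glutathione, was listed at 0, 13.5 and 20.8 FPKM in ND LP and at 0, 0 and 11.4 in PA milk LP, and at 0 in all 6 IEL libraries.

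Genes that respond to the isolation of cells from tissue lay in the same direction. Of 13 such genes, among them Fos, Jun, Dusp1 and the cytosolic heat shock genes Hspa1a and Hspa1b, 12 were higher in ND LP than in ND IEL and 9 without overlap. Their summed level was 1.46%, 2.49% and 1.78% of all FPKM in ND LP and 0.996%, 0.536% and 0.803% in ND IEL. In PA milk it was 2.76%, 0.193% and 3.4% in LP and 1.63%, 0.215% and 0.873% in IEL, low in the 2 sparse libraries, where Ddit3 was listed at 0 as well. Hspa1b was called between the layers in PA milk (log2 fold change 6.15, limma adjusted p 0.0204), at 434, 65.6 and 635 FPKM in LP and 2.91, 0.196 and 10 in IEL. The part of cell isolation in the levels of Ppp1r15a, Ddit3 and Hspa5 was not tested, and since each layer had its own isolation step, layer and isolation cannot be told apart.

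**Figure D4:**
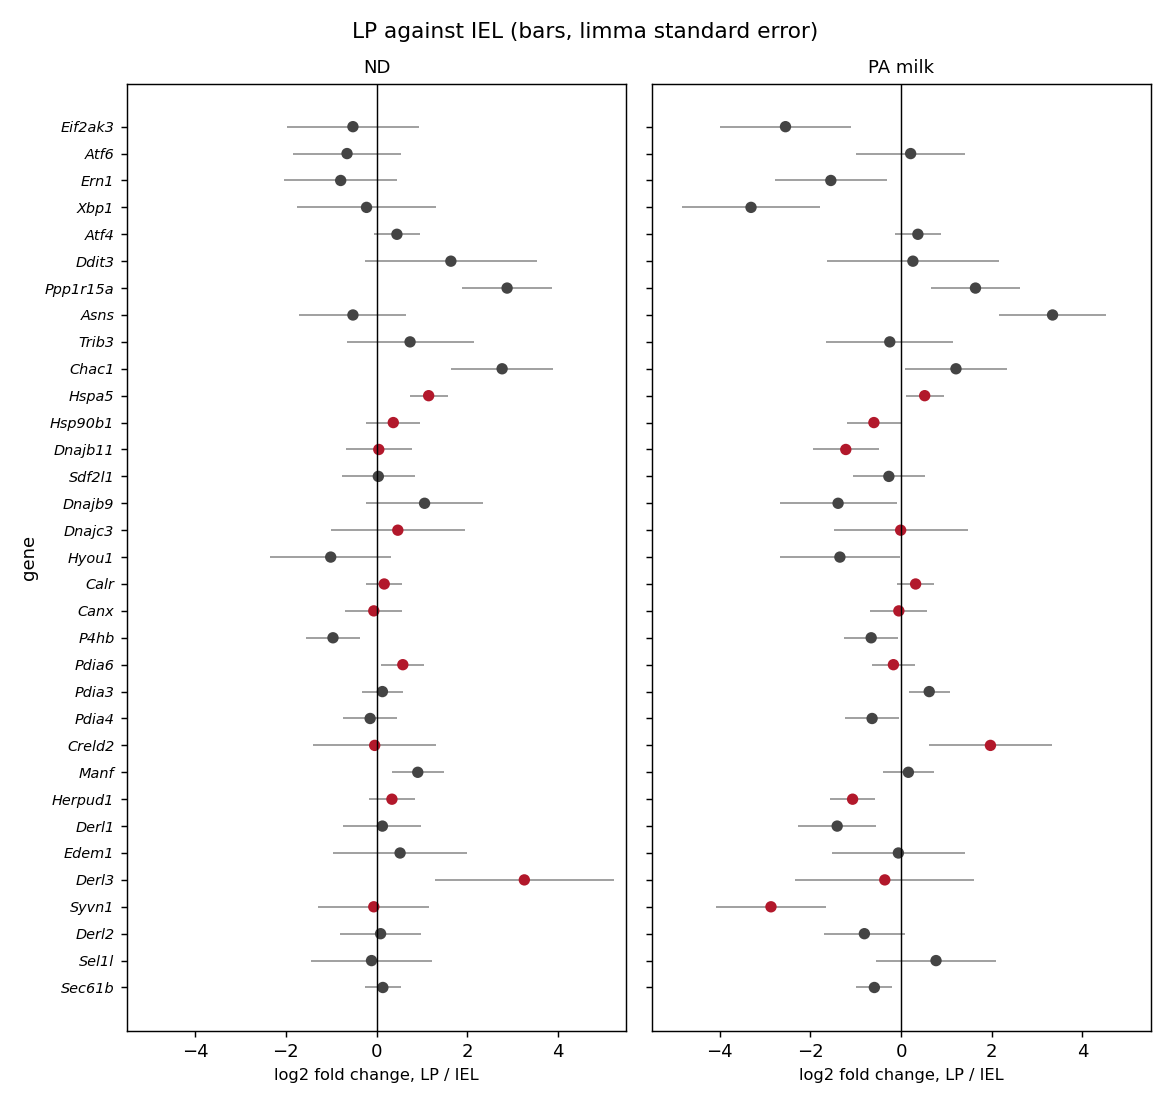
Log2 fold change of LP over IEL with its limma standard error (horizontal axis) for the 33 genes tested (rows), in ND on the left and in PA milk on the right; red points mark the 11 genes with an ER stress element. In ND, several genes lie clear of 0 by more than their error bars. Among them are Derl3 (3.26), Ppp1r15a (2.88), Chac1 (2.77) and Hspa5 (1.15) on the right and P4hb (-0.96) on the left. In PA milk Asns (3.34) lies to the right and Xbp1, Syvn1 and Herpud1 (-3.31, -2.87 and -1.07) to the left. None of the 33 was called in either diet.

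In PA milk mice, 12 of the 33 genes were higher and 21 lower in LP than in IEL, with a median of -0.25 against 0.03 over all genes. Without the 2 sparse libraries the counts were 14 higher and 19 lower, with a median of -0.23 against -0.05. Without PA milk LP replicate 2 alone the median was 0.22 against 0.23 over all genes. At an adjusted p under 0.05 limma called 0 of the 33, against 18 genes in all (0.144%), and at an unadjusted p under 0.05 it found 4 of the 33 against 1327 genes in all (10.6%). Asns was higher in LP (log2 fold change 3.34, SE 1.18, limma adjusted p 0.404), with 41 FPKM or more in each LP library and 13.4 or less in each IEL library, 1 of 33 without overlap against 4.51% of all genes. Lower in LP without overlap were Herpud1 (196, 111 and 331 FPKM against 493, 394 and 350; log2 fold change -1.07, SE 0.50) and Syvn1 (13.2, 0 and 15.8 FPKM against 32.9, 146 and 17.8; log2 fold change -2.87, SE 1.22), 2 of 33 against 4.06% of all genes. Herpud1 and Syvn1 act in the same ERAD ligase complex. Both sparse libraries weighed on Syvn1, since they held its highest and its lowest value, and without them its log2 fold change was -0.71. Xbp1 had a log2 fold change of -3.31 (SE 1.53), which was -0.30 without them.

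A single library, PA milk IEL replicate 1, held the highest level of several of the genes, which are named here because they peaked there. Xbp1 stood there at 1274 FPKM, Ern1 at 17.4 and the ERAD genes Edem1 at 150, Derl3 at 130 and Sel1l at 56.5. Dnajc3, a co-chaperone of BiP, was at 51.4 FPKM. The disulfide isomerase Pdia4 peaked there by a small margin, at 180 FPKM against 178 in PA milk IEL replicate 2. Other genes of degradation and folding did not peak there: Syvn1 (146 FPKM), Derl1 (166 FPKM) and Dnajb11 (193 FPKM) were highest in PA milk IEL replicate 2, and Dnajb9 was at 16.8 FPKM in replicate 1 against 102 in ND LP replicate 1. Derl3 was at 0 in the other PA milk IEL libraries and at 7.19 or less in ND IEL. The same library held the highest sum of B and plasma cell markers, 3.15% of all FPKM against 1.08% or less in the others. Igj, the joining chain of secreted antibodies, was at 17900 FPKM there. The next highest levels of Derl3, 97.5 FPKM in ND LP replicate 3 and 60.5 in PA milk LP replicate 3, were in libraries with 6580 and 7590 FPKM of Igj. Other libraries went another way. ND IEL replicate 3 had 3470 FPKM of Igj and 7.19 of Derl3, and ND LP replicate 1 had 614 of Igj and 31.9 of Derl3. Xbp1 was next highest, at 817 FPKM, in PA milk IEL replicate 2, where Igj was at 1.19 FPKM. Plasma cells are known for high levels of these genes, and their part in these values was not tested.

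**Figure D5:**
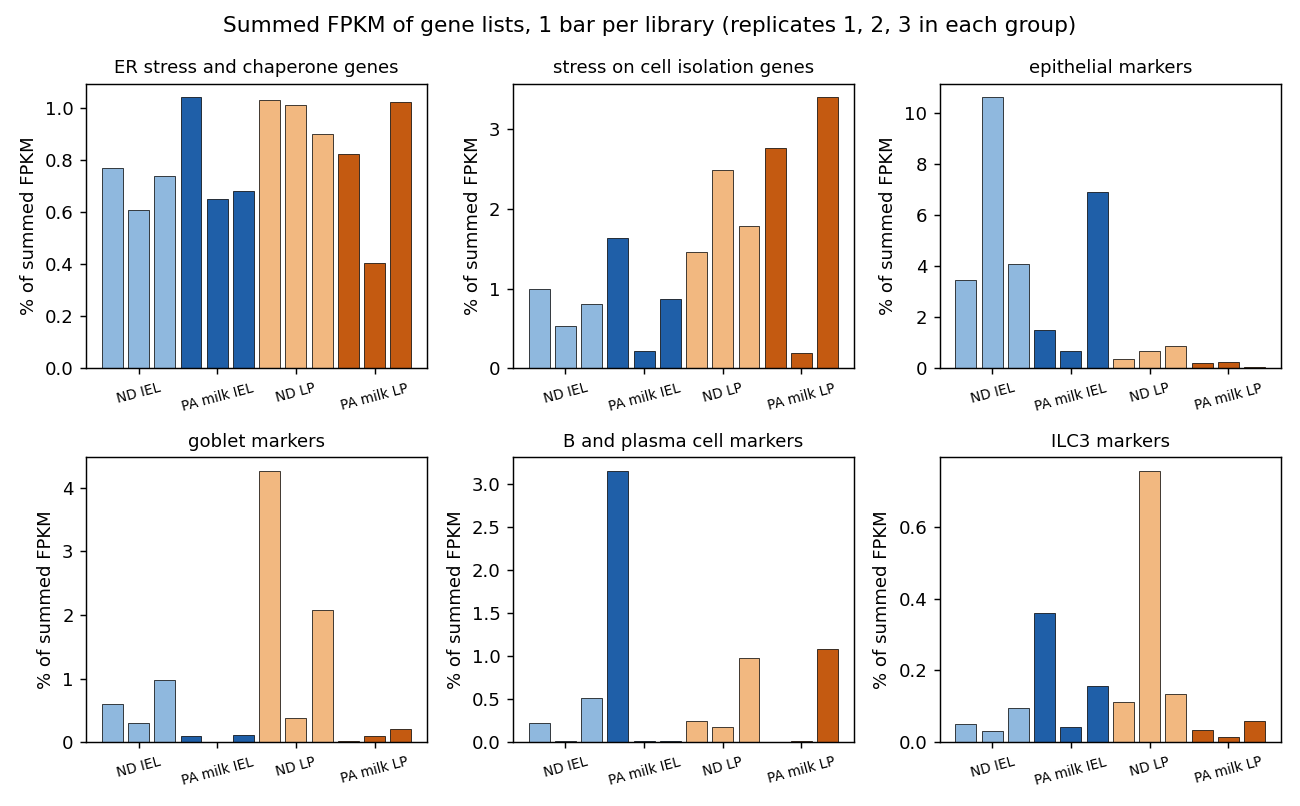
Summed FPKM of the 34 genes and of lists of marker genes, as a percent of all FPKM of a library (vertical axes, each from 0), with 1 bar for each of the 12 libraries in the order of replicates 1, 2 and 3 within a group. The 34 genes stay between 0.406% and 1.04%, whereas the marker lists differ manyfold between libraries, with B and plasma cell markers highest in PA milk IEL replicate 1 (3.15%) and goblet markers in ND LP replicate 1 (4.26%).

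Further genes of the secretory pathway were counted from 6 lists with 136 genes, of which 127 were tested. In IEL 61 were higher and 65 lower in PA milk (median -0.12), and in LP 33 were higher and 94 lower (median -0.58). Over all genes the medians were -0.30 in IEL, where 60.5% were lower, and -0.36 in LP. These lists were not counted without the 2 sparse libraries. Limma called none of the 127 in either layer at an adjusted p under 0.05, and at an unadjusted p under 0.05 it found 3 in IEL and 4 in LP, all lower in PA milk. These unadjusted counts stand beside 3.58% and 4.7% of all genes. Beside the 62.2% of all genes that were lower in LP, the lists gave the translocon and signal peptidase (16 of 22 lower), in other folding enzymes (15 of 20), in other ERAD genes (18 of 22), in other ATF4 targets (18 of 25), in other stress transducers (14 of 19) and in COPII transport and Golgi retrieval (13 of 19).

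By list, the genes with the smallest p in LP were Sec61g, a partner of Sec61b in the translocon (log2 fold change -1.33, SE 0.51), Erp29 (-2.39, SE 1.29), the ERAD ligase gene Rnf5 (-4.61, SE 1.17, unadjusted p 0.0012, limma adjusted p 0.65), the tRNA synthetase gene Nars (-1.65, SE 0.90), Creb3l1 (-2.21, SE 0.99) and the coat gene Sec24d (-2.16, SE 1.09). In IEL they were the signal peptidase gene Sec11a (-2.20, SE 1.25), the prolyl isomerase gene Ppib (-2.60, SE 1.31), Edem3 (-2.06, SE 0.95), the ATF4 target Mthfd2 (3.34, SE 1.64), Creb3l1 (-2.65, SE 0.99) and Sec24a (-2.05, SE 1.07). Creb3l1, a stress transducer built like ATF6, thus led its list in both layers. None of these 12 values passed the test.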

How the data were processed

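RNA of sorted ILC3s was read from 12 libraries in 4 groups of 3, grouped by the sample labels. The authors amplified cDNA with SMART-Seq v4, which has no molecular identifiers, mapped reads to mm10 with TopHat 2.1.1, Bowtie 2.2.8.0 and SAMtools 0.1.18, and quantified genes with Cufflinks 2.2.1. The deposited FPKM values cover 23284 genes on a common scale; the annotation is not given in the sources used here. The second table the authors deposited holds a scaled signal, read counts divided by a factor per library and rounded, with totals of 9376529 to 11710874. It was used only for depth: low values lay within 0.05 of a whole multiple of a library's step for 90.4% to 96.5%, and 1 step was taken as 1 read.

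The test was limma 3.58.1 (R 4.3.3) with a mean-variance trend on log2(FPKM + 1), for the 12502 genes with at least 1 FPKM in at least 3 libraries, in 1 fit of 4 group means. P-values were two-sided and adjusted by Benjamini-Hochberg over all genes tested, with a threshold of 0.05. Fold changes are on the log2(FPKM + 1) scale, which understates those of low genes. Members and lists were chosen with earlier results of these data known, so no test was made over a list. By rule, values per library were given for the 6 most abundant genes, for the sensors and transcription factors and for the 3 smallest p in each comparison, and genes whose groups did not overlap were counted and named; of each pathway list the smallest p per layer was named. Further single genes, such as Ern2, Derl3 and Igj, were named after their values were seen. Promoter windows came from RefSeq (GRCm38.p6), gene models from GENCODE. Python 3.11.15, numpy 2.4.6, pandas 2.3.3 and matplotlib 3.10.9 were used.

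Alternatives were a pseudocount of 0.1, no filter or a filter in every library, 2 other scalings, only the 6 libraries of a comparison, a replicate block, sample quality weights, and leaving out each library or the 2 sparsest. A marker gene of the sorted cells is not reported here.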

Additional observations from a re-analysis of the deposited data

Results flagged for a closer look

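Asns, which encodes asparagine synthetase, had opposite diet differences in the 2 layers: every PA milk library lay below every ND library in IEL (12.4, 0 and 13.4 FPKM against 30.1, 17.1 and 25.9) and above every ND library in LP (82.3, 56.3 and 41 FPKM against 34.1, 26.5 and 4.31). The difference of the 2 log2 fold changes was 3.86 (SE 1.67). By limma it had an unadjusted p of 0.0351 and an adjusted p of 1, so it failed the correction over all genes. Over the fits that leave out each library it was 2.59 to 4.52. Of all genes tested, 0.24% had such a pattern.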

How the results depend on the processing

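Depth and spread limit these results: 3 libraries a group, of which PA milk IEL replicate 2 and PA milk LP replicate 2 are sparse, and no molecular identifiers. Count models were planned but not run, because the deposited counts are scaled and rounded; log2 of recovered reads scaled to library depth, chosen after seeing the data, stands in for them. The cause of the changes below was not tested.

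The median log2 fold change of the 33 genes tested (34 with upper quartile scaling) between the diets in IEL (0.14, all genes -0.30) was -0.29 with a pseudocount of 0.1 (all genes -0.63), -0.38 with upper quartile scaling (-0.58) and -0.58 on recovered reads (-0.97). In LP (-0.78, all genes -0.36) it was -1.21 with upper quartile scaling (-0.61), -0.40 with quality weights (-0.18) and -0.25 without the 2 sparse libraries (-0.05), and on recovered reads it equalled that of all genes (-1.02 for both). Directions turned in IEL for Hspa5 (-0.37 with upper quartile scaling, -0.04 with median of ratios scaling), Xbp1 (-0.10 with upper quartile scaling) and Ddit3 (0.97 without the 2 sparse libraries), and in LP for Xbp1 (0.22 without the 2) and Hspa5 (0.15 without the 2, 0.00 with weights).

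Between the layers in ND, the number of genes called (4) was 0 without a filter, on recovered reads and with the mouse label as replicate block, 1 with a pseudocount of 0.1, with a filter in every library and with either other scaling, 92 from only the 6 libraries, 793 with weights and 113 without the 2 sparse libraries. In PA milk (18) it was 3 without a filter, 4 with a filter in every library, 8 with upper quartile scaling, 1 from only the 6 libraries, 5 with the mouse label as replicate block, 134 with weights, 11 on recovered reads and 314 without the 2. Of the 33 genes, 3 were called in ND with weights (Ppp1r15a, Hspa5 and Chac1) and 1 without the 2 sparse libraries in each diet (Ppp1r15a).

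Same-numbered libraries correlated at -0.123 to 0.116 in their deviations, and libraries of a mouse label at -0.031 to 0.06. With 3 libraries a group these correlations cannot decide whether the numbers pair samples, and the main fit did not pair them. The replicate block by number gave 3 genes called between the diets in LP, and the block by mouse label 1 for the difference between the layers, against 0 each; none was among the 33.

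Leaving out each library in turn gave 0 to 1 genes called between the diets in IEL, 0 to 8 in LP, 0 to 65 between the layers in ND and 1 to 289 in PA milk, the highest of the last pair without PA milk LP replicate 2. Of the 33, 0 to 1 were called between the layers in each diet. The median was -0.29 to 0.14 in IEL, -1.26 to -0.25 in LP, -1.26 to -0.14 for the difference, 0.11 to 0.33 between the layers in ND and -0.78 to 0.22 in PA milk. Xbp1 gave -0.03 to 1.09 in IEL and -4.20 to 0.22 in LP, Ddit3 -2.94 to 0.97 in IEL and Hspa5 -0.78 to 0.15 in LP.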

Other observations

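Outside the 34 genes, 38 genes had one of the 2 ER stress elements in the promoter window, none of them in the 6 lists of the secretory pathway, and 12 of them were tested. Among the 38 were genes of ER proteins such as Ero1b, an oxidase that recharges disulfide isomerases, Alg12, a mannosyltransferase of N-glycan assembly, and Calr4, a relative of calreticulin; these were named after the search result was seen. Of the 12 tested, 6 were higher and 6 lower in PA milk in IEL (median log2 fold change -0.01), and 7 were higher and 5 lower in LP (median 0.02). Of all genes tested, 38.0% were higher in PA milk in IEL (median -0.30) and 37.4% in LP (median -0.36). Between the layers, 10 of 12 were higher in LP than in IEL in ND (median 0.46) and 9 of 12 in PA milk (median 0.50). For all genes these shares were 53.6% in ND (median 0.09) and 51.1% in PA milk (median 0.03). Limma called 0 of the 12 in any of these comparisons, with 1 at an unadjusted p under 0.05 in each of the comparisons except PA milk against ND in IEL, where there were 0. The shares of all genes at that limma threshold were 3.58% and 4.7% between the diets in IEL and LP. Between the layers they were 6.63% in ND and 10.6% in PA milk.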
